A study of Bos taurus with 6 samples.

Results

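The miR-181 family was examined in liver small RNA from Wye Angus steers raised under 2 feeding regimens. Its members were taken by name as bta-miR-181a, bta-miR-181b, bta-miR-181c and bta-miR-181d, which are 4 of the 1030 mature miRNAs listed in each library, and no other listed name belongs to the family. All 4 members had a count above 2 in at least 2 libraries and so were among the 456 miRNAs tested. The grass-fed group was 3 steers kept on alfalfa, hay or grass pasture and sampled at 21 months of age, and the grain-fed group was 3 steers kept on corn silage, shelled corn, soybean and minerals and sampled at 14 months. Both groups came from one closed herd and reached market weight, and 1 small RNA library was made per animal from the left lobe of the liver. Diet and age cannot be told apart in this design. Libraries held 3824592 to 6133960 miRNA counts in the grass-fed group and 464875 to 892929 in the grain-fed group, so depth also follows the groups.

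A miRNA is loaded into an Argonaute protein and pairs through its seed, the bases near its 5′ end, with sites in target mRNAs, which lowers their translation and stability. The miR-181 members share a seed and differ mainly in the bases that follow it, with bta-miR-181c closest to bta-miR-181a and bta-miR-181d closest to bta-miR-181b. The family is best known from lymphocytes, where miR-181a tunes the sensitivity of T cell receptor signalling, and from endothelium, where miR-181b restrains NF-kB signalling. In liver, miR-181a has been tied to the deacetylase SIRT1 and insulin sensitivity, and the family to TGF-beta signalling.

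The family is made from 6 precursors in 3 tandem pairs. In the RefSeq annotation of ARS-UCD2.0, a later assembly than the ARS-UCD1.2 used by the authors, 6 of 6 precursors were matched by name. The genes of bta-mir-181a-1 and bta-mir-181b-1 are nearest neighbours and overlap no other gene, lying between PTPRC, which encodes the leukocyte phosphatase CD45, and NR5A2, a nuclear receptor of bile acid and cholesterol metabolism. Those of bta-mir-181a-2 and bta-mir-181b-2 overlap NR6A1, an orphan nuclear receptor gene, and the lncRNA LOC100848407. Those of bta-mir-181c and bta-mir-181d are adjacent and overlap NANOS3, a germ cell gene.

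Both abundant members come from 2 precursors each, and the counts do not show which one produced the RNA. The rows of bta-miR-181a under its 2 precursors differed by at most 1 count in every library, so nearly all of its reads fit both. For bta-miR-181b the row under bta-mir-181b-2 exceeded that under bta-mir-181b-1 in 6 of 6 libraries, by 49, 49 and 22 counts in grass-fed replicates 1, 2 and 3 and by 2, 3 and 8 counts in those of the grain-fed group. At least that many reads therefore fit bta-mir-181b-2 alone, which is 1.16% to 7.27% of the bta-miR-181b counts, and the remainder cannot be divided between the loci. The larger of the rows was used for each member.

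The 4 members differed in level far more than the diets did. Levels are given as CPM, read counts relative to library size, after TMM scaling, which also corrects for library composition. A read covers the whole of a mature miRNA, so no scaling by length is needed. bta-miR-181a stood at 1690, 1298 and 1151 CPM in the libraries of grass-fed replicates 1, 2 and 3, and at 1289, 1692 and 1513 CPM in those of grain-fed replicates 1, 2 and 3. It was the 47th most abundant of the tested miRNAs, and its highest grass-fed and highest grain-fed values were nearly equal. bta-miR-181b had 202, 203 and 158 CPM in the grass-fed and 169, 193 and 195 CPM in the grain-fed replicates, in the same order. All of its values lay within a narrow band in which the grass-fed group held both the lowest and the highest.

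**Figure D1:**
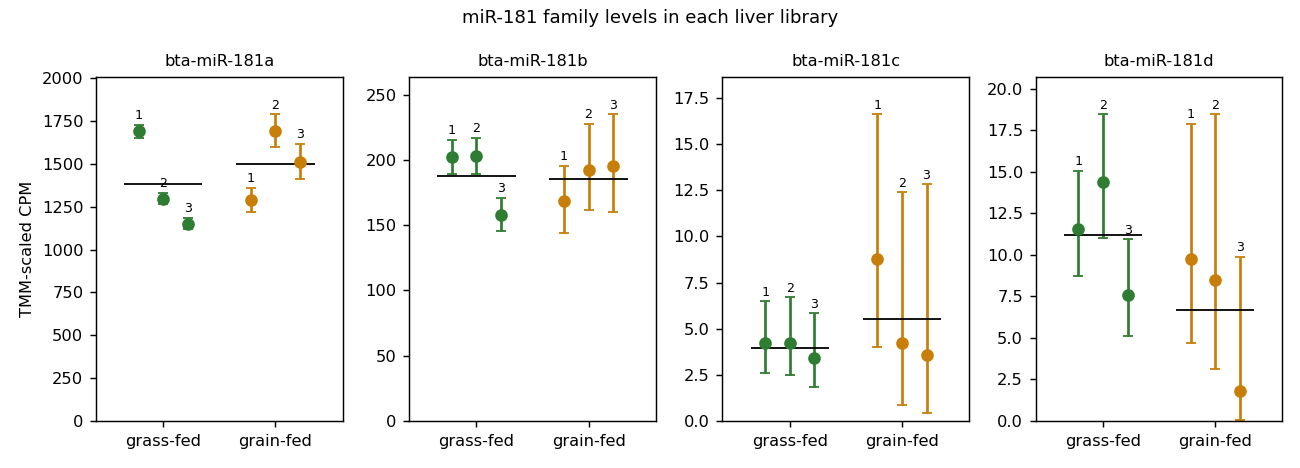
TMM-scaled CPM of each miR-181 member (vertical axes, each from 0) in the 3 grass-fed and 3 grain-fed libraries, numbered by replicate. Points are libraries, vertical bars are exact 95% Poisson intervals for counting error, and horizontal lines are group means; the groups overlap for every member, and the bars of bta-miR-181c and bta-miR-181d in grain-fed liver are wide because they rest on 1 to 10 reads.

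bta-miR-181c was near the limit of detection, with 20, 18 and 13 counts in the grass-fed and 9, 3 and 2 counts in the grain-fed libraries. These correspond to 4.21, 4.24 and 3.41 CPM in grass-fed and 8.77, 4.25 and 3.55 CPM in grain-fed liver, with grain-fed replicate 1 apart from the other libraries. bta-miR-181d had 55, 61 and 29 counts in the grass-fed and 10, 6 and 1 counts in the grain-fed replicates, or 11.6, 14.4 and 7.61 CPM against 9.74, 8.50 and 1.77 CPM. Its grain-fed replicate 3 was the lowest and rested on 1 read, for which the exact 95% Poisson interval runs from 0.0449 to 9.88 CPM. A count of 0 would allow up to 0.632 to 0.787 CPM in a grass-fed and up to 2.92 to 5.32 CPM in a grain-fed library, taking 3 counts as the floor. These intervals and floors cover counting error only.

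The order of the levels was bta-miR-181a, then bta-miR-181b, then the pair of bta-miR-181d and bta-miR-181c. The ranges of the first 2 members did not meet each other or those of the rarer pair in any library. bta-miR-181d was above bta-miR-181c in all 3 grass-fed libraries without overlap, at 7.61 to 14.4 against 3.41 to 4.24 CPM. In grain-fed liver their ranges overlapped, at 1.77 to 9.74 against 3.55 to 8.77 CPM, so the rarer pair has no order there beyond its spread. How reads that fit more than one member were assigned is not given in the sources used here, which leaves the small counts of bta-miR-181c and bta-miR-181d uncertain beside their abundant near relatives.

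None of the members differed between the regimens beyond the spread between animals. In the edgeR quasi-likelihood test fitted over all tested miRNAs, with Benjamini-Hochberg adjustment and FDR 0.1, 0 of 4 members were called, where 19.1% of all tested miRNAs were. At an unadjusted p below 0.05 the count was also 0 of 4, against 25.2% of all tested miRNAs, and DESeq2 and limma-voom likewise called 0. The CPM ranges of grass-fed and grain-fed libraries overlapped for every member, whereas 32.9% of all tested miRNAs had ranges that did not overlap.

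bta-miR-181a averaged 1379 ± 279 CPM (SD, n = 3) under the grass-fed regimen, against 1498 ± 202 CPM (SD, n = 3) under the grain-fed regimen. Its log2 fold change, grass-fed over grain-fed, was -0.12, with a standard error of 0.22 and an edgeR FDR of 0.804. The 95% interval ran from -0.59 to 0.36 on the log2 scale, which is from 0.663 to 1.28 as a ratio of grass-fed to grain-fed level. bta-miR-181b averaged 188 ± 25.7 and 185 ± 14.7 CPM (SD, n = 3 each). Its log2 fold change was 0.023, with a standard error of 0.22, an interval from -0.46 to 0.51 and an edgeR FDR of 0.947. The spread between animals, as SD over mean, was 20.2% and 13.5% for bta-miR-181a and 13.7% and 7.92% for bta-miR-181b in the grass-fed and grain-fed groups. Standard errors of both members were below the lower quartile over all tested miRNAs, 0.27, where the median was 0.43. Both are abundant, 47th and 106th in level of all tested miRNAs, and no comparison was made with miRNAs of like level.

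The rarer members pointed in opposite directions, and neither passed the test. bta-miR-181c averaged 3.96 ± 0.470 CPM (SD, n = 3) on grass and 5.52 ± 2.83 CPM (SD, n = 3) on grain. Its log2 fold change was -0.60, with a standard error of 0.49, an interval from -1.67 to 0.48 and an edgeR FDR of 0.499. Without grain-fed replicate 1 the value was -0.038. bta-miR-181d averaged 11.2 ± 3.40 CPM (SD, n = 3) on grass and 6.67 ± 4.29 CPM (SD, n = 3) on grain. Its log2 fold change was 0.62, with a standard error of 0.50, an interval from -0.47 to 1.71 and an edgeR FDR of 0.488. Without grain-fed replicate 3, the library with 1 read, it was 0.24. Over all grain-fed libraries these estimates rest on 14 reads of bta-miR-181c and 17 of bta-miR-181d, and a log2 fold change of -1 for the first or 1 for the second lies inside its interval.

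**Figure D2:**
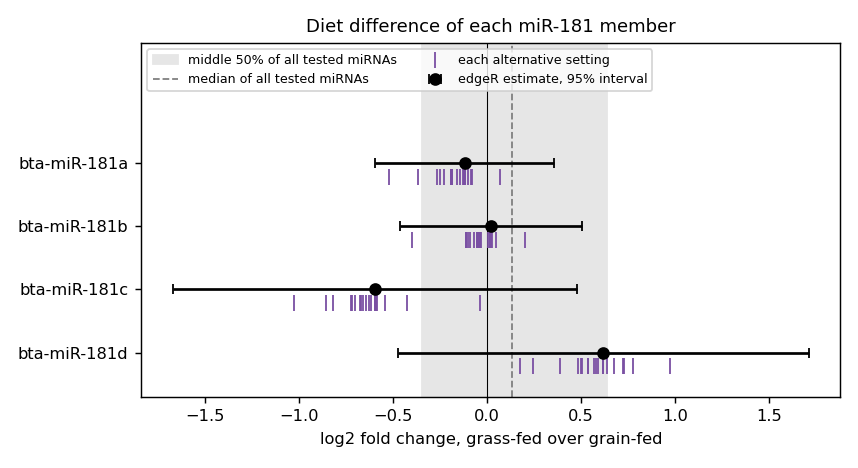
Log2 fold change of each member, grass-fed over grain-fed (horizontal axis), with its 95% interval from edgeR (black) and the estimate under each alternative setting (purple ticks). The shaded band is the middle 50% of all 456 tested miRNAs and the dashed line their median; all 4 intervals include 0.

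The median log2 fold change was -0.047 over the 4 members and 0.13 over all tested miRNAs. That background moved with the scaling of the libraries, to 0.31 with upper-quartile scaling and -0.29 with total counts alone. bta-miR-181a moved with it, to 0.068 (FDR = 0.861, edgeR) and -0.52 (FDR = 0.215, edgeR), so its direction depends on the scaling. A change of scaling moves all fold changes by nearly the same amount, so the distance from the median is largely fixed. Under TMM, bta-miR-181a was at -0.25 and bta-miR-181b at -0.11 relative to that median on the log2 scale.

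**Figure D3:**
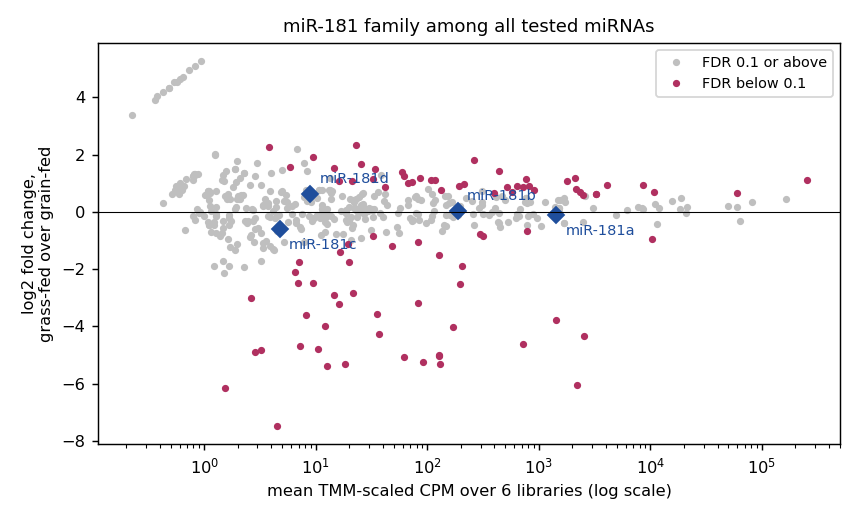
Log2 fold change, grass-fed over grain-fed (vertical axis), against mean TMM-scaled CPM over the 6 libraries (horizontal axis, log scale) for all 456 tested miRNAs, with those below FDR 0.1 in red and the miR-181 members as labelled diamonds. bta-miR-181a and bta-miR-181b lie close to 0 at high levels; the rising line of grey points at the lowest levels holds fitted values of miRNAs with no grain-fed read, which depend on the prior count.

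Summed over its members, the family reached 1908, 1519 and 1320 CPM in the libraries of grass-fed replicates 1, 2 and 3, while grain-fed replicates 1, 2 and 3 had 1476, 1897 and 1714 CPM. The grass-fed group thus held both the highest and the lowest library, and no test was made of this sum. As a share of all miRNA counts before TMM scaling, the family took 0.178%, 0.105% and 0.131% in the grass-fed libraries, against 0.170%, 0.211% and 0.208% in the grain-fed ones. On that scale only grass-fed replicate 1 reached into the grain-fed range. bta-miR-122, the main hepatocyte miRNA, was higher in grass-fed liver, with means of 345228 and 159287 CPM (n = 3 each, SD 97629 and 35804, FDR = 0.00419 in edgeR), and takes up a larger part of the total there. Its part in the difference between the scales was not tested.

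Composition within the family does not depend on library scaling. bta-miR-181a made up 85.4% to 88.6% of family counts in the grass-fed and 87.3% to 89.2% in the grain-fed libraries, and bta-miR-181b 10.6% to 13.4% and 10.1% to 11.4%. The remaining members together made up 0.828%, 1.23% and 0.835% in the grass-fed libraries, against 1.25%, 0.672% and 0.311% in the grain-fed ones. There were 8.36, 6.39 and 7.28 reads of bta-miR-181a for each read of bta-miR-181b in the grass-fed libraries, against 7.65, 8.79 and 7.75 in the grain-fed ones. The log2 ratio of bta-miR-181b to bta-miR-181a was higher in grass-fed liver by 0.14 and the groups overlapped (exact two-sided permutation p = 0.4, adjusted p = 0.48 over the 6 ratios between members).

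bta-miR-181d and bta-miR-181c, whose genes are adjacent, had the one ratio that separated the groups both with and without the 0.5 added to each count. There were 2.75, 3.39 and 2.23 reads of bta-miR-181d for each read of bta-miR-181c in the grass-fed libraries, against 1.11, 2 and 0.5 in the grain-fed ones. The mean log2 ratio was 1.43 ± 0.303 (SD, n = 3) on grass and 0.10 ± 0.816 (SD, n = 3) on grain, a difference of 1.33. The exact two-sided permutation p was 0.1, the smallest that 3 libraries against 3 can give, and 0.3 after adjustment over the 6 ratios, so the difference does not pass 0.05. The gap was narrow, since grain-fed replicate 2 at 2 stood just under grass-fed replicate 3 at 2.23 and rested on 6 and 3 reads. With each library left out in turn the difference lay between 0.91 and 1.73. The ratio of bta-miR-181c to bta-miR-181b also gave an exact permutation p of 0.1 (adjusted p = 0.3) with the 0.5 added. Without it the groups overlapped and the exact permutation p was 0.7.

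**Figure D4:**
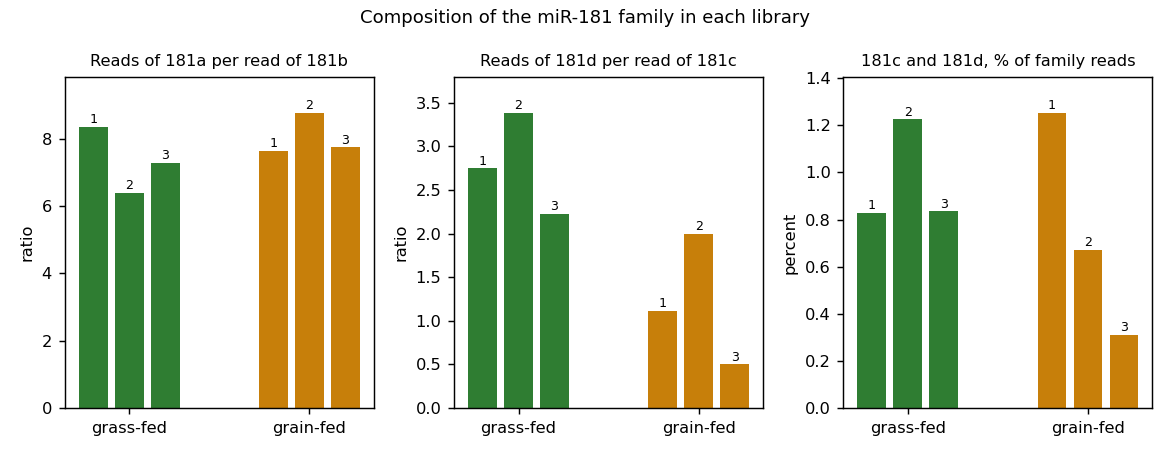
Reads of bta-miR-181a per read of bta-miR-181b (left, ratio), reads of bta-miR-181d per read of bta-miR-181c (middle, ratio) and bta-miR-181c and bta-miR-181d together as a percentage of family reads (right), one bar per library numbered by replicate. The 3 grass-fed libraries are above the 3 grain-fed libraries in the middle panel only, where the grain-fed bars rest on few reads.

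Both abundant members had nearly level profiles over the 6 libraries. Likeness to other miRNAs was measured as the root mean square difference of log2 CPM over the 6 libraries after each miRNA was centred on its own mean, against the 132 other miRNAs with a mean of at least 100 CPM. For bta-miR-181a the closest of these was bta-miR-181b, with a difference of 0.15, followed by bta-miR-3432a at 0.15 and bta-miR-27a-3p at 0.16, where the median was 0.40. For bta-miR-181b the closest were bta-miR-3432a at 0.074, bta-miR-151-3p at 0.10 and bta-miR-142-5p, a miRNA of blood cells, at 0.12, where the median was 0.33, and bta-miR-181a was 9th. This measure favours level profiles: a flat line lies 0.14 from bta-miR-181b, nearer than bta-miR-181a does, and 0.21 from bta-miR-181a, so small distances do not show shared variation. None of these passed FDR 0.1 between the regimens in edgeR after TMM scaling. Both members were lowest in grass-fed replicate 3 and below their mean in grain-fed replicate 1. They parted in grass-fed replicate 2, where bta-miR-181a was 0.13 below and bta-miR-181b 0.13 above its mean on the log2 scale. All such values share the scaling of their library.

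**Figure D5:**
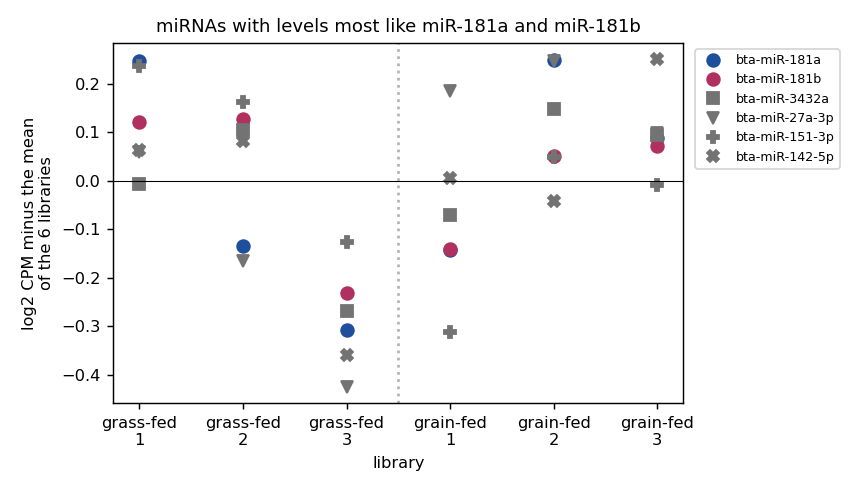
Log2 CPM minus the mean of the 6 libraries (vertical axis) in each library (horizontal axis, grass-fed left and grain-fed right of the dotted line) for bta-miR-181a, bta-miR-181b and the miRNAs most like them. Both members are lowest in grass-fed replicate 3, and bta-miR-181a is 0.25 above its mean in grass-fed replicate 1 and in grain-fed replicate 2.

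In bulk liver, fewer cells of a type and less RNA per cell cannot be told apart, and miR-181 is made in several cell types. Counts of markers called are read against 19.1% of all tested miRNAs called in edgeR, 9.43% of them higher. Of 5 leukocyte miRNAs, 0 passed FDR 0.1, and the sum of all 5 was 743 to 993 CPM in grass-fed and 943 to 1132 CPM in grain-fed libraries. An unadjusted p below 0.05, which 25.2% of all tested miRNAs had, was found for 3 of the 5. These were bta-miR-142-3p, bta-miR-150 and bta-miR-223, with log2 fold changes of -0.98, -0.51 and -0.62. Of the rest, bta-miR-142-5p, the most abundant of the list, was at -0.13, and bta-miR-155 pointed the other way, at 0.40. Both arms of bta-miR-126, which mark endothelium, were not called, at 11449 to 16152 and 9476 to 14335 CPM in sum. Of 4 miRNAs of stellate cells and fibroblasts, bta-miR-145, bta-miR-199a-3p and bta-miR-199a-5p were higher in grass-fed liver, and the list summed to 7989 to 10927 against 5535 to 5922 CPM. The remaining one, bta-miR-214, was not called, with a log2 fold change of 0.028 (FDR = 0.947, edgeR). Of 4 hepatocyte miRNAs, bta-miR-122 and bta-miR-192 were higher. bta-miR-148a and bta-miR-194 were not called, with log2 fold changes of 0.46 and -0.43 (FDR = 0.212 and 0.300, edgeR). The list summed to 516614 to 820705 CPM in grass-fed and 328202 to 389866 CPM in grain-fed libraries, mostly from bta-miR-122 and bta-miR-148a. Of 3 erythroid miRNAs 0 were called, at 419 to 643 and 465 to 665 CPM. No marker was at 0 in every library. The calls of bta-miR-192 and of both arms of bta-miR-199a were lost with total counts alone and without grain-fed replicate 1 or 2, and those of the bta-miR-199a arms also without grass-fed replicate 1. The part of these cell types in the miR-181 levels was not tested.

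Of 20 other miRNAs of the pathways in which miR-181 acts, 14 were not called in edgeR, where 19.1% of all tested miRNAs were called. The remaining 6 were 3 higher (15%) and 3 lower (15%) in grass-fed liver, where 9.43% of all tested miRNAs were called higher and 9.65% lower, and no test compared the lists with that background. The number called fell to 4 without grain-fed replicate 1 or 2 and with the replicate number as a block. With total counts alone it was 5, of which 1 was higher and 4 were lower, and with upper-quartile scaling 7, of which 5 were higher and 2 were lower. Of 6 miRNAs that act on NF-kB signalling, bta-miR-146a and bta-miR-146b, which target adaptors of Toll-like receptor signalling, were lower, with log2 fold changes of -0.67 (FDR = 0.0918) and -0.76 (FDR = 0.0331). bta-miR-146a lost its call without any one library except grass-fed replicate 1, with FDR up to 0.198. bta-miR-155, a miRNA of activated leukocytes, had a log2 fold change of 0.40 (FDR = 0.442). Of 6 miRNAs known to target SIRT1, bta-miR-217 alone was called, as lower in grass-fed liver. It had 0.842, 0.236 and 1.05 CPM in the grass-fed libraries, against 16.6, 43.9 and 0 CPM in the grain-fed ones. It did not pass the filters of at least 10 counts in 3 libraries and filterByExpr, so it was not tested in those settings. It is abundant in pancreas, and grain-fed replicate 3 had no read of it, so its ranges overlapped. Some other miRNAs of pancreas were also highest in grain-fed replicates 1 and 2. They were chosen after their values were seen, so this likeness is no test. bta-miR-216b had 6.82, 9.91 and 0 CPM in grain-fed replicates 1, 2 and 3 and at most 0.262 CPM on grass, and bta-miR-375 had 62.3, 77.9 and 14.2 CPM against 31.0 to 35.0 CPM. bta-miR-216a had 4.87, 4.25 and 0 CPM and no read on grass. In edgeR, bta-miR-216a and bta-miR-216b were called lower in grass-fed liver (FDR = 0.00882 and 0.00124), at low levels. bta-miR-375 was not called (FDR = 0.280, edgeR), and its grain-fed replicate 3 lay below every grass-fed library. The part of pancreatic RNA in the call of bta-miR-217 was not tested. bta-miR-34a, the best known regulator of SIRT1 in liver, had a log2 fold change of -0.25 (FDR = 0.704). Of 10 miRNAs linked to TGF-beta signalling, bta-miR-145, bta-miR-199a-5p and bta-miR-200b, an epithelial miRNA, were higher, with log2 fold changes of 1.09, 0.61 and 1.11 (FDR = 0.00597, 0.0516 and 0.00886), and the other 7 were not called. With total counts alone bta-miR-199a-5p was at 0.18 (FDR = 0.613, edgeR) and bta-miR-200b at 0.69 (FDR = 0.114, edgeR), while bta-miR-146a was at -1.09 (FDR = 0.0156, edgeR) and bta-miR-146b at -1.20 (FDR = 0.00266, edgeR).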

How the data were processed

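Small RNA of 18 to 30 nt from 6 livers, 1 per animal, was sequenced by the authors. They removed adapters, low-quality reads and reads shorter than 17 or longer than 25 nt, mapped the rest to ARS-UCD1.2, and used miRDeep2 to count the miRNAs of miRBase 22.0. The submitters' processing notes also name FastQC 0.11.5 and Trimmomatic 0.36. Aligner settings and the miRDeep2 version are not given in these sources. Each deposited file gives raw counts for 1207 pairs of a mature miRNA with a precursor. The deposited CPM column, a pair's count relative to the library total, was not used.

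For each mature miRNA the largest count over precursors was taken. A miRNA was tested when at least 2 libraries had more than 2 counts of it. Libraries were scaled by TMM, and grass-fed was compared with grain-fed by the quasi-likelihood test of edgeR 4.0.16 in R 4.3.3 (Benjamini-Hochberg FDR 0.1). This test was first run on simulated data. In each draw 200 of 456 miRNAs were changed. There it found 42.5% of log2 changes of 1 and 80.15% of log2 changes of 2 over all levels, so smaller changes can be missed. Among changed miRNAs with a mean of at least 10 counts it found 57.1% and 96.3%. More miRNAs were changed there than the 19.1% called here, which eases the adjusted threshold, so these rates may not hold for these data. Standard errors are the log2 fold change over the root of F, with 95% t intervals. Ratios between members used count plus 0.5 and an exact permutation test, and likeness used a prior count of 2. DESeq2 1.42.0, limma-voom (limma 3.58.1), other scalings, filters and precursor rules, FDR 0.05, a block on replicate number and fits without each library in turn were the alternatives. The named miRNAs were the members, the 3 tested miRNAs most like each member of at least 10 CPM, and examples from lists of cell type markers and pathway miRNAs written from general knowledge. Members and lists were chosen with earlier results of these data known. Replicates differed by more than sampling noise.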

Additional observations from a re-analysis of the deposited data

How the results depend on the processing

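None of the 4 members passed FDR 0.1 in any of the 18 alternative fits, with or without a filter on low counts. The remaining alternative, FDR 0.05 on the main fit, is stricter and could add no call. The estimate of bta-miR-181a kept its sign except with upper-quartile scaling, at 0.068. That of bta-miR-181b, near 0, turned to -0.054 with DESeq2, -0.053 with RLE scaling, -0.40 with total counts alone, -0.11 with at least 10 counts in 3 libraries, -0.092 with filterByExpr, -0.035 with counts summed over precursors, and -0.069 and -0.049 when the rows of bta-mir-181b-1 and bta-mir-181b-2 were tested on their own. The summed family level, -0.11 on the log2 scale after TMM, was -0.53 with total counts alone; the scaling itself sets this gap.

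When single libraries were left out, bta-miR-181b lay between -0.11 and 0.049, bta-miR-181a between -0.36 and -0.079, bta-miR-181c between -0.86 and -0.038 and bta-miR-181d between 0.24 and 0.97. The log2 ratio of bta-miR-181c to bta-miR-181a lay between -0.62 and 0.024. The number of DEmiRNAs, 87, lay between 49 (without grain-fed replicate 2) and 86. Of these 87, 50.6% were lower in grass-fed liver, against 87.8% with total counts alone and 33.9% with upper-quartile scaling.

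Same-numbered libraries of the regimens had correlations across miRNAs of -0.054, -0.20 and -0.011, against -0.21 to 0.23 for libraries of different number. With so few libraries these values cannot show whether the numbers pair animals, and the sample titles do not say. With the replicate number as a block, the values were -0.13, 0.016, -0.54 and 0.68 for bta-miR-181a, bta-miR-181b, bta-miR-181c and bta-miR-181d, with no call, and 82 DEmiRNAs. The few grain-fed reads limit what can be said of bta-miR-181c and bta-miR-181d.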
